A study of Rattus norvegicus with 36 samples.

Results

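Genes of the muscle acetylcholine receptor and of the neuromuscular junction were followed in the soleus of rats whose spinal cord had been contused at thoracic level. The genes were Chrna1, Chrnb1, Chrnd, Chrne and Chrng (receptor subunits), Rapsn and Musk (receptor clustering), Ache and Colq (acetylcholinesterase and its anchor) and Ncam1 (a cell adhesion molecule). A gene was measured where a probe set, the group of oligonucleotides that reads 1 transcript on the array, carried its symbol and no other. If several did, the brightest was taken, by its mean log2 signal on the 36 arrays. In this way 9 of the 10 genes were measured, of 14217 genes on the array with such a probe set. No probe set met the rule for Ache, which was not analysed here.

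The rats were adult female Sprague Dawley, 16 weeks of age at the start, and each of the 6 groups had 6 rats with 1 array of left soleus per rat. Age-matched controls (CTR) served as the baseline, and their labels place them before injury. In all other groups a 10 g weight was dropped from 25 mm onto cord segment T8, a moderate contusion (SCI). Untrained rats were killed 3 days (SCI3d), 8 days (SCI8d) or 14 days (SCI14d) later. Trained rats walked on a treadmill from day 7, with the body supported by hand where needed. Sessions lasted 20 min, and rats of SCI8d+TM completed 3 of them, while those of SCI14d+TM completed 2 on each of 5 days. Muscles of trained rats were taken 8 h after the last session. The methods describe no operated but uninjured group, and the injured rats also received anaesthesia, analgesics and a dough diet, so these cannot be told apart from the contusion.

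The muscle acetylcholine receptor opens when the motor nerve releases acetylcholine and starts the contraction of the fiber. It is built from α1, β1 and δ subunits plus ε in adult muscle, where ε (Chrne) has replaced the fetal γ subunit (Chrng). Agrin from the nerve acts through Lrp4 and the kinase MuSK so that rapsyn packs receptors under the nerve terminal, and ColQ holds acetylcholinesterase in the cleft. When a motor nerve is cut, the muscle is known to turn Chrna1, Chrng, Musk, Ncam1 and the myogenic factor Myog back on along the whole fiber. A contusion at T8 lies above the lumbar motor neurons of the soleus, and the question here was which of these genes moved, and in which direction.

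The 6 slow-fiber markers Myh7, Tnni1, Tnnt1, Tnnc1, Myl2 and Myl3 stood between percentiles 99.88 and 99.99 of all probe sets, as is usual for this slow muscle. Array medians ran from 167 to 236 signal units, and the ratio of 3' to 5' GAPDH signal ran from 1.02 to 1.61, with 3 arrays over 1.3 (CTR replicate 3, SCI14d replicate 4 and SCI14d+TM replicate 1). Within SCI14d, replicate 4 stood apart for several genes below, so differences that rest on it are given with and without it. Correlations over the arrays are given only with it. Groups were compared on log2 signals in limma over 31042 probe sets, and a gene is said to have risen or fallen where its adjusted p was under 0.05. The comparisons with controls share the same 6 control arrays.

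After injury, some junction genes were higher than in controls and others lower. The receptor α1 subunit gene Chrna1 and the anchor gene Colq fell on days 3 and 8, and the clustering gene Rapsn fell on day 3. The adult subunit gene Chrne rose on days 3 and 8, Ncam1 rose on day 8 and Musk rose on day 14. The β1, δ and γ subunit genes did not pass the test in any comparison. On day 3, 1 of the 9 genes rose and 3 fell, where 7.22% of all probe sets rose and 9.24% fell. On day 8, 2 rose and 2 fell (3.01% and 3.28% of all probe sets), and on day 14 1 rose (1.52% of all probe sets). The median log2 fold change of the 9 genes was -0.40, -0.07 and -0.06 on days 3, 8 and 14, beside -0.04, 0.04 and 0.08 over all probe sets. Across the 6 groups together, the F test called 5 of the 9 genes, Chrna1, Chrne, Rapsn, Musk and Colq (21.9% of all probe sets).

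**Figure D1:**
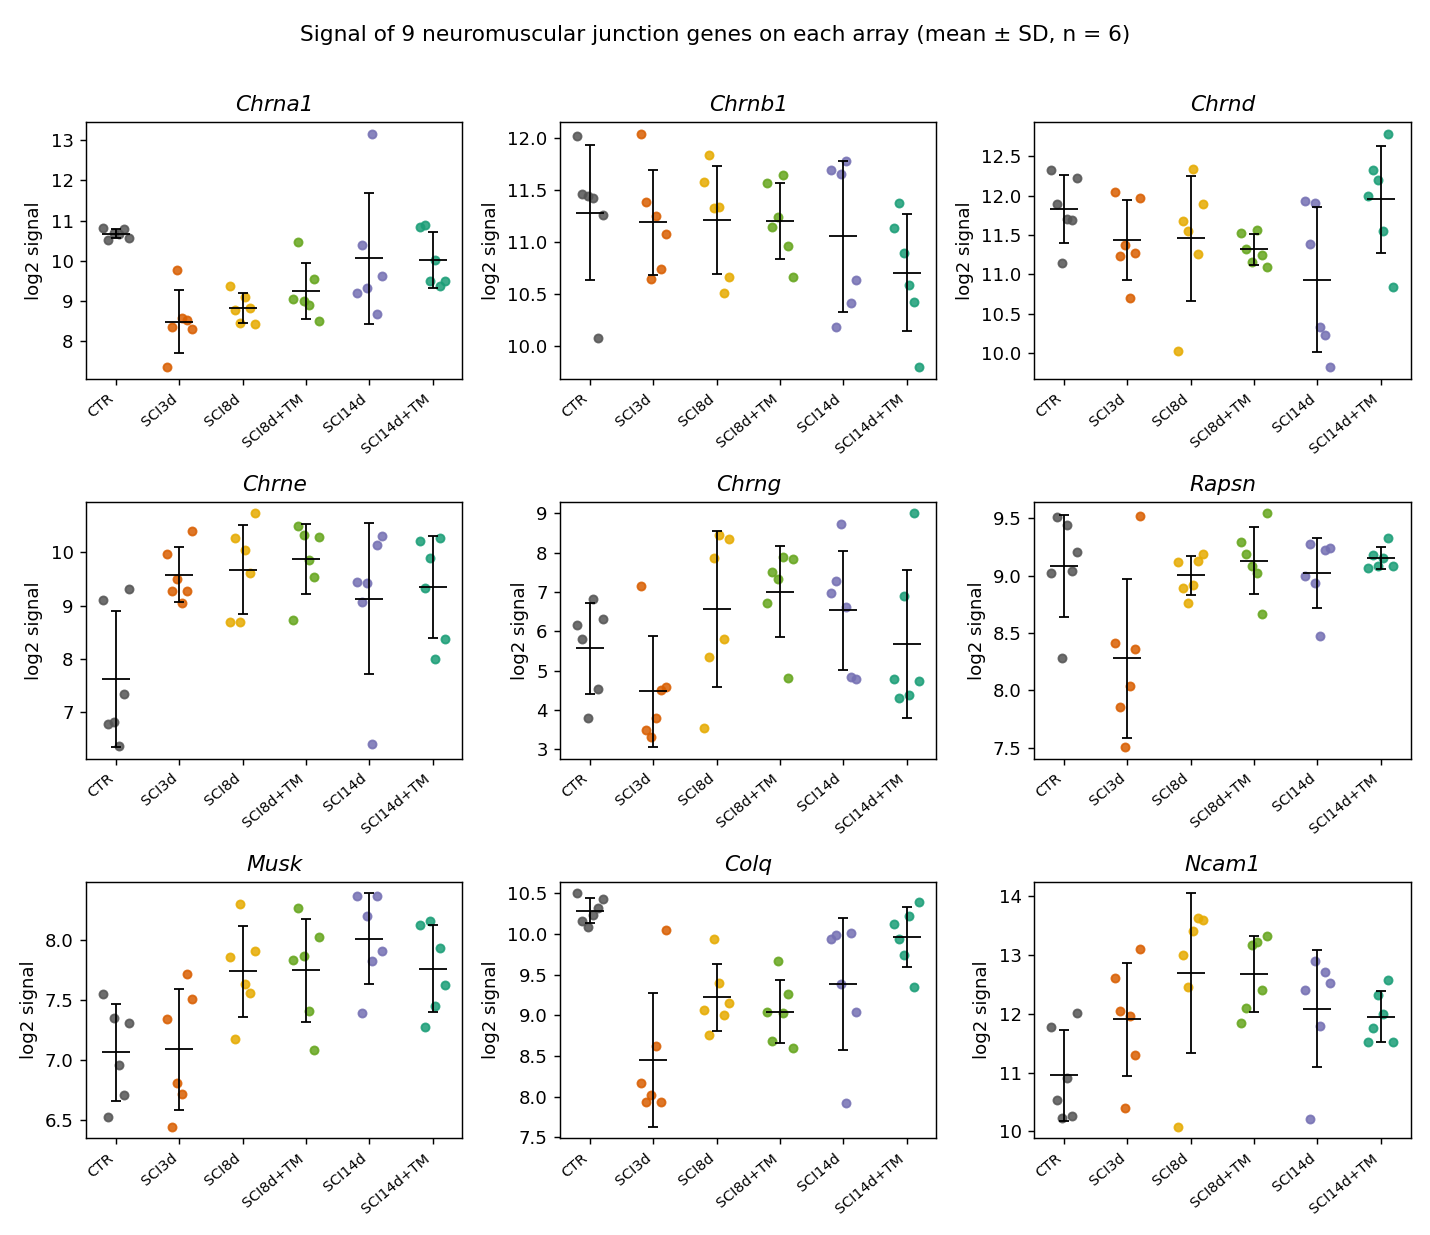
Log2 signal of the 9 measured genes on each of the 36 arrays. Each point is 1 rat, the 6 groups run along the horizontal axis, and the black dash and bars are the mean ± SD (n = 6). All SCI3d and SCI8d points of Chrna1 lie below all control points, and the single high point in SCI14d is replicate 4 at a signal of 9179.

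Chrna1 encodes the subunit that carries the acetylcholine site, and it fell on the early days. In controls its signal was tight, from 1459 to 1807 with a median of 1635. On day 3 it ran from 163 to 877 (median 349.8), and on day 8 from 342 to 661 (median 449). Every injured rat of these days lay below every control. The fall was 4.56-fold on day 3 (log2 fold change -2.19, SE 0.46, adjusted p = 0.000734) and 3.60-fold on day 8 (log2 -1.85, SE 0.46, adjusted p = 0.0124). Both calls were kept when any 1 array was left out. On day 14 the signal ran from 406 to 9179 with a median of 713, and the log2 fold change was -0.61 (SE 0.46, adjusted p = 0.523). Of the 6 rats, 5 lay below the lowest control, at 406 to 1347, and replicate 4 lay above the highest. Without replicate 4 the log2 fold change on day 14 was -1.23 (adjusted p = 0.0503), still not past the threshold. SCI14d exceeded SCI3d by 1.58 (adjusted p = 0.0191), but by 0.95 without SCI14d replicate 4 (adjusted p = 0.0634) and by 1.35 without SCI3d replicate 1 (adjusted p = 0.0558), so that this call rested on those arrays. In order of the median, the groups ran from SCI3d over SCI8d, SCI8d+TM (520.5), SCI14d and SCI14d+TM (876) to controls, and each group overlapped its neighbour in this order. SCI3d, SCI8d and SCI8d+TM did not overlap controls.

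Chrne moved the other way. In controls 4 rats lay between 81.7 and 161, and the other two, replicates 1 and 6, lay at 550.3 and 634.5. On day 3 the signal ran from 530.4 to 1357 (median 674.5), and on day 8 from 412 to 1700.5 (median 922). The lowest injured rats therefore overlapped the high pair of controls and no others. The rise was 3.91-fold on day 3 (log2 1.97, SE 0.53, adjusted p = 0.00861) and 4.17-fold on day 8 (log2 2.06, SE 0.53, adjusted p = 0.0171). The day 8 call was lost without SCI8d replicate 6 (log2 1.85, adjusted p = 0.0537). On day 14, 5 rats lay between 534 and 1270.2 and replicate 4 at 84.7, within the low controls. The log2 fold change was 1.52 (SE 0.53, adjusted p = 0.109) with that rat and 2.06 (adjusted p = 0.0192) without it.

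In adult muscle ε takes the place of γ, so the Chrng signal was read beside that of Chrne. The Chrng probe set was dim, at percentile 31.6 of all probe sets, and alone among the 9 lay under the 40th percentile. Its signal ran from 13.9 to 113 in controls (median 63.8), from 9.9 to 142 on day 3 (median 18.3), from 11.6 to 353 on day 8 (median 144) and from 27.6 to 424 on day 14 (median 112). All groups overlapped. The log2 fold changes against controls were -1.10, 0.99 and 0.96 on days 3, 8 and 14 (SE 0.84 each, adjusted p = 0.436, 0.554 and 0.604). On day 8 the 95% interval of that change ran from -0.72 to 2.70, which holds no change as well as a large rise.

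For the β1 subunit the log2 fold changes were -0.09, -0.07 and -0.22 on days 3, 8 and 14 (SE 0.31 each, adjusted p = 0.894, 0.924 and 0.769). The Chrnb1 signal spread over a like range in every group, from 1076 to 4155 in controls and from 1598 to 4212 on day 3. For the δ subunit gene Chrnd the changes were -0.40, -0.37 and -0.90 (SE 0.34 each, adjusted p = 0.501, 0.588 and 0.141). On day 14, 3 rats lay at 2686 to 3899 and 3 at 904 to 1284, where controls ran from 2262 to 5132. Both genes overlapped controls on every day.

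The upstream sequences of 4 subunit genes are shown because Chrna1 and Chrne moved apart and Chrnd shares a motif with Chrne. They are the 250 bases before the gene start in RefSeq (rat genome GRCr8), read 5′ to 3′ along the gene, and of the 10 genes 7 had an entry. Capitals mark every E-box, CANNTG, the motif bound by Myog and other myogenic factors, and every N-box, TTCCGG or CCGGAA on the other strand, the motif bound by GABP. E-boxes read the same on both strands under this pattern, and no E-box overlapped an N-box. The windows are chr3:78877354-78877603 (minus strand), chr9:95310066-95310315 (plus strand), chr10:55834155-55834404 (minus strand) and chr9:95325734-95325983 (plus strand).
Chrna1: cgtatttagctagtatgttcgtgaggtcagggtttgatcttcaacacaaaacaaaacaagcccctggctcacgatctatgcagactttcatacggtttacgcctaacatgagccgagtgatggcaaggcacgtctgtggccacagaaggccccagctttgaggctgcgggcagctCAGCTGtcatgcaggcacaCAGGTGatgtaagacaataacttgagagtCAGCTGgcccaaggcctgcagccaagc
Chrnd: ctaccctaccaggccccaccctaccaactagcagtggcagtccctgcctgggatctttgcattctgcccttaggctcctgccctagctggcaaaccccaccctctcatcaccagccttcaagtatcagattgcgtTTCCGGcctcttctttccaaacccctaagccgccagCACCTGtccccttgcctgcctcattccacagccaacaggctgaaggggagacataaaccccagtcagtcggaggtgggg
Chrne: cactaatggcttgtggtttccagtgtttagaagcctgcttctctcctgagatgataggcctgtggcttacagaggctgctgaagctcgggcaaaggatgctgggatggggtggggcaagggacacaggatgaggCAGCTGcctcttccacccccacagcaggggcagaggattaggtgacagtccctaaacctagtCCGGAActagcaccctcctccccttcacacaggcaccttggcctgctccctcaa
Chrng: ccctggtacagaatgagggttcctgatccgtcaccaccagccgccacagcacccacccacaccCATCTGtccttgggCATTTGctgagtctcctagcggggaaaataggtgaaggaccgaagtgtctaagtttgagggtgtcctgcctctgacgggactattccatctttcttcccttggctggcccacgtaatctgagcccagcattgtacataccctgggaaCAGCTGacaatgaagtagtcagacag

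The Chrna1 window held 3 E-boxes, the nearest at 27 to 22 bases before the start, and no N-box. The Chrne window held 1 E-box, CAGCTG at 116 to 111 bases, and 1 N-box, CCGGAA at 54 to 49 bases. Chrnd held 1 E-box (CACCTG, 79 to 74 bases) and 1 N-box (TTCCGG, 115 to 110 bases), and Chrng held 3 E-boxes with the nearest at 26 to 21 bases. Musk and Chrnb1 also held 3 E-boxes each and no N-box. E-boxes are common, found in 65.5% of 33469 such windows of the genome, while CAGCTG was in 12% and the N-box in 12.6%. Among the factors that read these motifs, Myog rose on day 3, as given below, and the GABP genes did not pass the test. For Gabpb1 the log2 fold change was 0.47 on day 3 (SE 0.17, adjusted p = 0.0552), and for Gabpa it was 0.09 (SE 0.14, adjusted p = 0.742). Of the pair that holds the N-box, Chrne rose on day 3 and Chrnd, at -0.40, did not pass the test.

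Colq encodes the collagen tail that anchors acetylcholinesterase in the synaptic cleft, and it fell most on day 3. Controls ran from 1089 to 1449 (median 1242). SCI3d ran from 245 to 1064 (median 273), with 5 rats at 394 or less and replicate 6 alone at 1064. SCI8d ran from 434 to 983 (median 554) and SCI14d from 243 to 1031 (median 827). On each of the 3 days all injured rats lay below all controls. This separation was seen for 2 of the 9 genes on day 3, Chrna1 and Colq (4.31% of all probe sets lay lower without overlap), for the same pair on day 8 (1.54%) and for Colq on day 14 (1.21%). The fall was 3.56-fold on day 3 (log2 -1.83, SE 0.30, adjusted p = 4.27e-05) and 2.10-fold on day 8 (log2 -1.07, SE 0.30, adjusted p = 0.0276). On day 14 it was not past the threshold (log2 -0.91, SE 0.30, adjusted p = 0.0872). The day 8 call was lost without CTR replicate 1 or 6 or without SCI8d replicate 2, 5 or 6 (adjusted p = 0.0552 to 0.0763). Without SCI14d replicate 4, its lowest rat, the day 14 value was -0.61 (adjusted p = 0.260). Colq stood higher in SCI14d than in SCI3d by 0.93 (SE 0.30, adjusted p = 0.0361). That call was kept only without SCI3d replicate 6, SCI14d replicate 4 or SCI14d replicate 6, and was lost in the other 9 fits that left out 1 array (adjusted p = 0.0502 to 0.0943).

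Rapsn encodes rapsyn, which ties receptors to the cytoskeleton. Its signal ran from 311 to 729.8 in controls (median 559) and on day 3 from 182 to 733 (median 295). On day 3, 5 rats lay at 341 or less, and replicate 6, the rat with the highest Colq signal of that group, lay at 733. The log2 fold change was -0.80 (SE 0.22, adjusted p = 0.00851). By days 8 and 14 it was -0.08 and -0.06 (SE 0.22 each, adjusted p = 0.875 and 0.923), and both groups stood above SCI3d, by 0.72 (adjusted p = 0.0378) and 0.74 (adjusted p = 0.0205). The first of these calls was lost without SCI3d replicate 2, 3 or 4 or SCI8d replicate 1, 4, 5 or 6 (adjusted p = 0.0582 to 0.124), and the second without SCI3d replicate 2 or 3 (adjusted p = 0.0576 and 0.0694). Both were lost under quantile normalization (adjusted p = 0.0848 and 0.0890) and median centring (adjusted p = 0.107 for both). A second Rapsn probe set, dimmer than the first, showed -0.37 on day 3 (SE 0.30, 95% interval -0.98 to 0.23, adjusted p = 0.463), the same direction without passing the test.

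Musk encodes the receptor kinase through which agrin organises the junction, and it rose late. Controls ran from 91.9 to 187 (median 141) and SCI3d from 87.0 to 210.2 (median 137), nearly the same span. SCI8d ran from 145 to 316 (median 216) and SCI14d from 168 to 331 (median 268). On day 14 only the lowest rat, replicate 2, lay within the control range. The log2 fold change was 0.03, 0.68 and 0.95 on days 3, 8 and 14 (SE 0.24 each, adjusted p = 0.964, 0.0921 and 0.0262). SCI14d stood above SCI3d by 0.92 (SE 0.24, adjusted p = 0.0102). The rise over controls lost its call without CTR replicate 2 or 5 or without SCI14d replicate 1, 3, 5 or 6 (adjusted p = 0.0504 to 0.0762).

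Ncam1, which marks the surface of immature and denervated fibers, had its highest signals on day 8. Controls ran from 1205 to 4106 (median 1702), SCI3d from 1346 to 8812 (median 4101) and SCI8d from 1082 to 12625 (median 9508). On day 8, 5 rats lay above all controls, at 5618 to 12625, and replicate 1 lay below all of them. The log2 fold change was 0.95 on day 3 (SE 0.48, adjusted p = 0.20), 1.74 on day 8 (SE 0.48, adjusted p = 0.0261) and 1.13 on day 14 (SE 0.48, adjusted p = 0.198). The day 8 call was lost without any one of CTR replicates 2, 3 and 5 and SCI8d replicates 2, 4, 5 and 6 (adjusted p = 0.0574 to 0.0746). The other Ncam1 probe sets were dimmer and gave log2 fold changes of 1.3 and 2.13 on day 8 (adjusted p = 0.324 and 0.163), the same direction without passing the test.

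**Figure D2:**
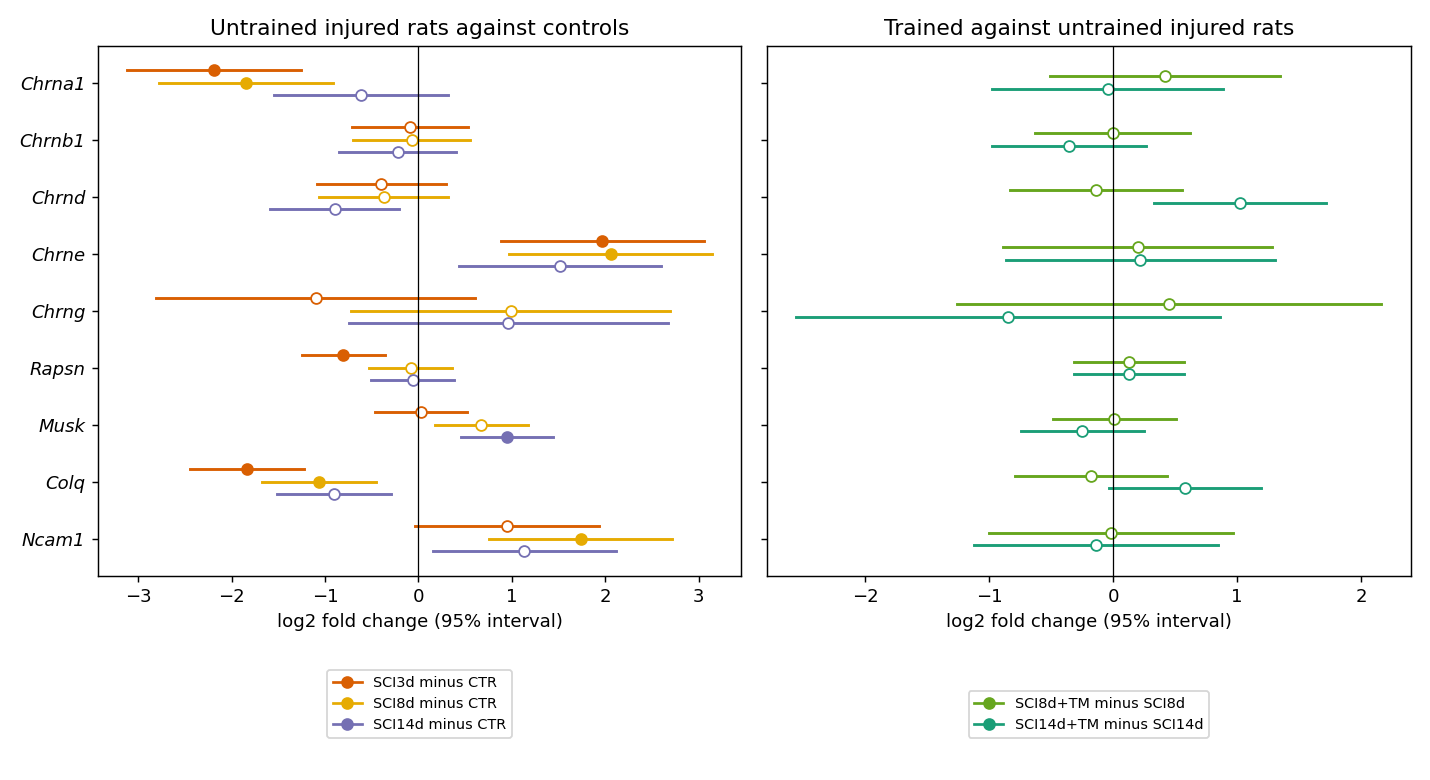
Log2 fold change of each gene with its 95% interval from limma, for untrained injured rats against controls on days 3, 8 and 14 (left) and for trained against untrained rats on days 8 and 14 (right). Filled points passed the adjusted p of 0.05, and none is filled on the right.

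Training was tested within a day, each trained group against the untrained group of that day. No junction gene differed on day 8 (0 of 9, beside 0% of all probe sets) or on day 14 (0 of 9, beside 0.00322% of all probe sets) in limma. At an unadjusted p under 0.05 the counts were 0 and 1 of 9, beside 1343 and 1849 of all 31042 probe sets. The methods' t-test after adjustment also called 0. The 1 gene at an unadjusted p was Chrnd on day 14. Its signal ran from 1835 to 7069 in trained rats (median 4404) and from 904 to 3899 in untrained rats (median 1985), so that the groups overlapped. The log2 difference was 1.02 (SE 0.34, unadjusted p = 0.0051, adjusted p = 0.673). The difference between the training effects of the 2 days was 1.16 for Chrnd (SE 0.48, adjusted p = 0.918), and 0 of 9 genes passed that test (0% of all probe sets). At an unadjusted p under 0.05 it was 1 of 9, beside 1659 of all 31042 probe sets. For Chrna1 the training difference was 0.42 on day 8 (95% interval -0.51 to 1.35) and -0.05 on day 14 (-0.97 to 0.88). Without SCI14d replicate 4 the day 14 value turned to 0.58 (-0.11 to 1.26). For Chrne it was 0.20 (-0.89 to 1.28) and 0.22 (-0.87 to 1.3), and without that rat the day 14 value turned to -0.33 (-1.3 to 0.64). The Chrne injury change was 2.06 on day 8 (95% interval 0.98 to 3.15) and 1.52 on day 14 (0.43 to 2.60), or 2.06 without replicate 4. It was measured on the same untrained arrays as the training difference of that day. Whether training changed Chrne by less than injury did was not tested.

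Against controls, the trained rats of day 8 had 2 genes higher and 2 lower of the 9 (6.48% and 5.71% of all probe sets). Chrna1 was lower by 1.43 (SE 0.46, adjusted p = 0.0358) and Colq by 1.24 (SE 0.30, adjusted p = 0.00599), each with all trained rats below all controls (3.61% of all probe sets were separated in this way). Chrne was higher by 2.26 (SE 0.53, adjusted p = 0.00498) and Ncam1 by 1.72 (SE 0.48, adjusted p = 0.0168). The Chrna1 call was kept in 2 of the 12 fits that left out 1 array and was lost without any 1 control or without SCI8d+TM replicate 1, 3, 4 or 6 (adjusted p = 0.0509 to 0.0842). On day 14 none of the 9 differed between trained rats and controls in limma (0.358% of all probe sets). At an unadjusted p under 0.05 it was 3 of 9, beside 3747 of all 31042 probe sets. In these trained rats the Chrne log2 fold change was 1.73 (SE 0.53, adjusted p = 0.152), the Colq change was -0.33 (SE 0.30, adjusted p = 0.715) and the Chrna1 change was -0.66 (SE 0.46, adjusted p = 0.597).

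Over time among untrained rats, 1 gene was higher on day 8 than on day 3 (Rapsn, 3.66% of all probe sets) and 4 were higher on day 14 than on day 3 (Chrna1, Rapsn, Musk and Colq, 7.99% of all probe sets). None of the 9 differed between days 14 and 8 in limma (0% of all probe sets). At an unadjusted p under 0.05 it was 1 of 9, beside 2717 of all 31042 probe sets. That 1 was Chrna1, with a difference of 1.23 (SE 0.46, adjusted p = 0.431), which was 0.61 (SE 0.34, adjusted p = 0.810) without SCI14d replicate 4. For the dim Chrng probe set, with the day 3 group at 9.9 to 24 apart from replicate 1, the difference between days 8 and 3 was 2.09 (SE 0.84, adjusted p = 0.140). It passed the test without SCI8d replicate 1 (2.69, adjusted p = 0.0387), and the difference between days 14 and 3, 2.06, passed without SCI3d replicate 1 (2.60, adjusted p = 0.0392).

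No gene that signals to the junction passed the test in untrained rats against controls. The list of 14 held agrin (Agrn), its receptor Lrp4, the MuSK adaptor Dok7 and the neuregulin receptors, all measured, and none differed from controls on day 3, 8 or 14 in limma. Over all probe sets 7.22% rose and 9.24% fell on day 3, 3.01% rose and 3.28% fell on day 8, and 1.52% rose on day 14. In so short a list few calls would be made at these shares. The smallest adjusted p were those of Gabpb1, above, of Agrn on day 3 (log2 -0.48, SE 0.18, adjusted p = 0.0675) and of the neuregulin receptor Erbb2 on day 8 (log2 0.78, SE 0.29, adjusted p = 0.104). In trained rats of day 8, 1 of the 14 was lower than in controls (5.71% of all probe sets were lower). It was Dnaja3, whose product takes part in MuSK signalling (log2 -0.73, SE 0.24, adjusted p = 0.0395). Between days, 1 of the 14 was higher (Nrg1, on a dim probe set) and 1 lower (Gabpb1) on days 8 and 14 than on day 3. Over all probe sets 3.66% were higher on day 8 than on day 3, and 7.99% on day 14. Median log2 fold changes of the list against controls were -0.07, -0.05 and -0.06 on days 3, 8 and 14. Of the junction matrix and scaffold genes, 8 of 9 were measured, and 3 fell on day 3 (9.24% of all probe sets, and 3.28% on day 8). They were Col13a1, a transmembrane collagen of the junction (log2 -1.3, SE 0.35, adjusted p = 0.00845), Lamb2, the synaptic laminin chain (log2 -0.84, SE 0.19, adjusted p = 0.00182), and Utrn, utrophin (log2 -0.48, SE 0.17, adjusted p = 0.0498, kept in 3 of 12 such fits). On day 8 only Col13a1 was called (log2 -1.20, SE 0.35, adjusted p = 0.0343, kept in 5 of the 12 fits that left out 1 array) and on day 14 none, with list medians of -0.43, -0.12 and -0.04. The Col13a1 probe set was dim, at 63.3 to 215 in controls and 22.8 to 77.1 on day 3.

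Neuronal acetylcholine receptor subunits, 11 of 11 measured, all lay under the 40th percentile of signal. Of these dim genes Chrnb2 fell on day 3 (log2 -1.95, SE 0.63, adjusted p = 0.0281) and Chrna6 rose on day 8 (log2 2.06, SE 0.58, adjusted p = 0.0262), and none was called on day 14. Over all probe sets 9.24% fell on day 3 and 3.01% rose on day 8.

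Among genes known to rise in denervated muscle, most calls were made on day 3. Of 13 listed, 12 were measured, and on that day 7 rose and 1 fell (7.22% and 9.24% of all probe sets). Those that rose were the transcription factors Myog and Runx1, the growth arrest gene Gadd45a, the deacetylase Hdac4, the potassium channel gene Kcnn3, the AMP deaminase Ampd3 and the ubiquitin ligase Trim63. The embryonic myosin gene Myh3 fell. Its probe set was bright, at percentile 98.86 of all probe sets, with a mean log2 signal of 13.81 in controls. Whether that signal came from embryonic myosin alone was not tested. On day 8 Runx1 and Gadd45a rose (3.01% of all probe sets), and on day 14 Runx1 and the perinatal myosin gene Myh8 rose (1.52%). The list was chosen with earlier results of these data known. The list's median log2 fold change was 1.08, 0.69 and 0.51 on days 3, 8 and 14, beside -0.04, 0.04 and 0.08 over all probe sets. The mean log2 level of the list lay above the control mean by 0.83 ± 0.14 on day 3, 0.65 ± 0.21 on day 8 and 0.85 ± 0.29 on day 14 (SD, n = 6). Single large changes weigh on these means, Myh3 at -1.71 on day 3 and Myh8 at 3.50 on day 14. Without SCI14d replicate 4, 1 gene of the list rose on day 14, and the list median was 0.58. Of the genes known to fall on denervation, Dach2 and Hdac9 had been listed, and neither had a probe set that met the rule.

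Myog, the factor that turns on receptor genes in a silent fiber, ran from 3250 to 4294 in controls (median 3332) and from 2955 to 17299 on day 3 (median 10877). On day 3, 5 rats lay above all controls and replicate 3 lay below them. The log2 fold change was 1.42 on day 3 (SE 0.29, adjusted p = 0.000535) and 0.76 on day 8 (SE 0.29, adjusted p = 0.108). SCI3d replicate 3, with the lowest Myog signal, had the highest Chrna1 signal of its group, 877. In SCI14d replicate 4, with the highest Chrna1 signal of its group, Myog ranked 3 of 6 from the lowest. A link between the signals of Myog and Chrna1 was not tested.

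Runx1 is a factor that denervated fibers express to limit wasting. It ran from 1187 to 2311 in controls (median 1864), from 2544 to 15332 on day 3 (median 7544), from 1521 to 6746 on day 8 (median 5748) and from 1756 to 13318 on day 14 (median 4778). All SCI3d rats lay above all controls, and 1 rat overlapped on each later day. The log2 fold changes were 2.0, 1.34 and 1.43 (SE 0.40 each, adjusted p = 0.000488, 0.0397 and 0.0422). On day 14 it was 1.13 (adjusted p = 0.131) without SCI14d replicate 4, and the calls of days 8 and 14 were each kept in 3 of the 12 fits that left out 1 array, while the day 3 call was kept in all 12. Gadd45a changed by 1.82 on day 3 (SE 0.43, adjusted p = 0.00264) and by 1.37 on day 8 (SE 0.43, adjusted p = 0.0488), a call kept in 2 of the 12 fits. Myh8 changed by 3.50 on day 14 (SE 0.72, adjusted p = 0.00602), with signals of 151 to 4222 against 4.3 to 179.9 in controls, and this call was kept in all 12 fits.

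The receptor and junction genes that denervation is known to raise thus differed among themselves. On day 3, when 7 listed denervation genes rose, Chrna1 fell by 2.19 on the log2 scale, Musk changed by 0.03 and Ncam1 by 0.95 without a call. On day 8 Ncam1 rose, Chrna1 was still lower by 1.85, and the Musk change was 0.68 (adjusted p = 0.0921). On day 14 Musk rose, and the change of Chrna1 was -0.61. Trained rats of day 8 showed 4 of the 12 denervation genes higher than controls and 1 lower, Fbxo32 (6.48% and 5.71% of all probe sets). Those of day 14 showed Myh8 higher (log2 3.06, adjusted p = 0.0459), where 0.358% of all probe sets differed.

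**Figure D3:**
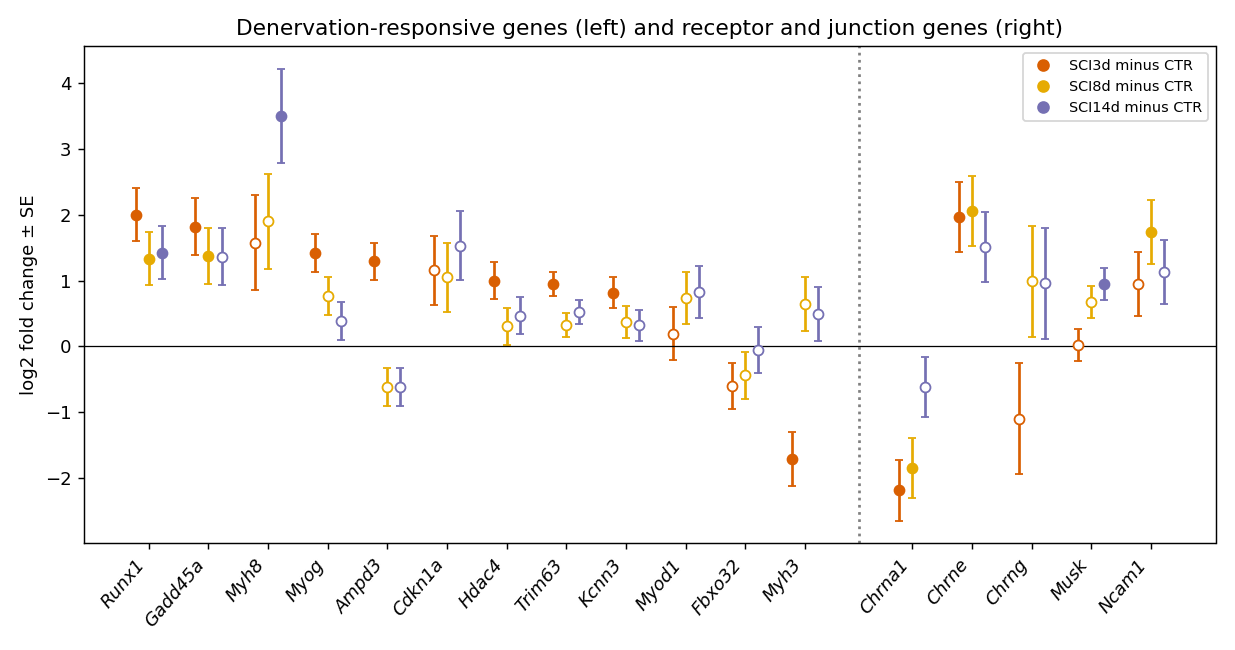
Log2 fold change ± SE against controls on days 3, 8 and 14 for 12 genes known to respond to denervation (left of the dotted line, ordered by their day 3 value) and for 5 receptor and junction genes (right). Filled points passed the adjusted p of 0.05. Runx1 is filled on all 3 days at 2.0, 1.34 and 1.43 (1.13 and no call on day 14 without SCI14d replicate 4), while Chrna1 is filled below 0 on days 3 and 8.

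The muscle of SCI14d replicate 4 stood apart. Its Chrna1 signal was 9179 where the other rats of the group lay at 406 to 1347. Its Chrne (84.7), Rapsn (356) and Colq (243) signals were the lowest of the 6. Of the 12 denervation genes, 6 were highest in this rat (Runx1 at 13318, Gadd45a at 17210, Cdkn1a at 15017, Ampd3 at 11810, Kcnn3 at 533 and Trim63 at 9383) and 2 were lowest (Myh3 and Myh8). How many of all probe sets were highest or lowest in this rat was not counted. These numbers therefore do not show a trait particular to denervation genes. Its slow-fiber markers lay 1.13 log2 units below the control mean, where the other rats of the group lay from 0.42 below to 0.08 above, and its macrophage markers lay 1.43 above. Its GAPDH ratio was 1.35. The part of the marker levels and of the GAPDH ratio in the Chrna1 signal was not tested.

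Over all 36 arrays the log2 signals of Chrna1 and Chrne had a Pearson r of -0.59, and of -0.44 after each group's mean was taken off. This is a description of arrays that share groups and scaling. Both values include SCI14d replicate 4, with Chrna1 at 9179 (highest of its group) and Chrne at 84.7 (lowest). They can rest largely on that rat, and no r was computed without it. Chrne went with Ncam1 (r = 0.66, and 0.52 within groups), Chrnd with Chrng (0.43, and 0.72 within groups) and Rapsn with Colq (0.58, and 0.45 within groups). For Rapsn and Colq, SCI14d replicate 4 was the lowest of its group in both genes, and SCI3d replicate 6 the highest in both. No r was computed without these rats. Of all genes above the 40th percentile, those most like Chrna1 over the 36 arrays were Rnaset2 (r = 0.80), Prph (0.79) and Echdc1 (0.78), of which Prph encodes the axon protein peripherin. Those most like Chrne were Tmod1 (0.79), Tmem19 (0.77) and Filip1 (0.75), those most like Colq were Lrrc39 (0.86), Tmem126a (0.86) and Slc2a13 (0.85), and those most like Rapsn were Cdc26 (0.82), Apbb1 (0.81) and Tubg1 (0.80). Ncam1 went most with Rhoc (0.87), Paqr8 (0.85) and Ywhah (0.84), and Musk with Sytl1 (0.70), C2h3orf80 (0.69) and Capn6 (0.67). For Chrnb1 they were Ube2n (0.79), G3bp1 (0.74) and Nudt3 (0.72), for Chrnd Inpp5a (0.71), Homer2 (0.67) and Mea1 (0.65), and for Chrng Pea15 (0.74), Armcx2 (0.74) and Anxa6 (0.73).

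**Figure D4:**
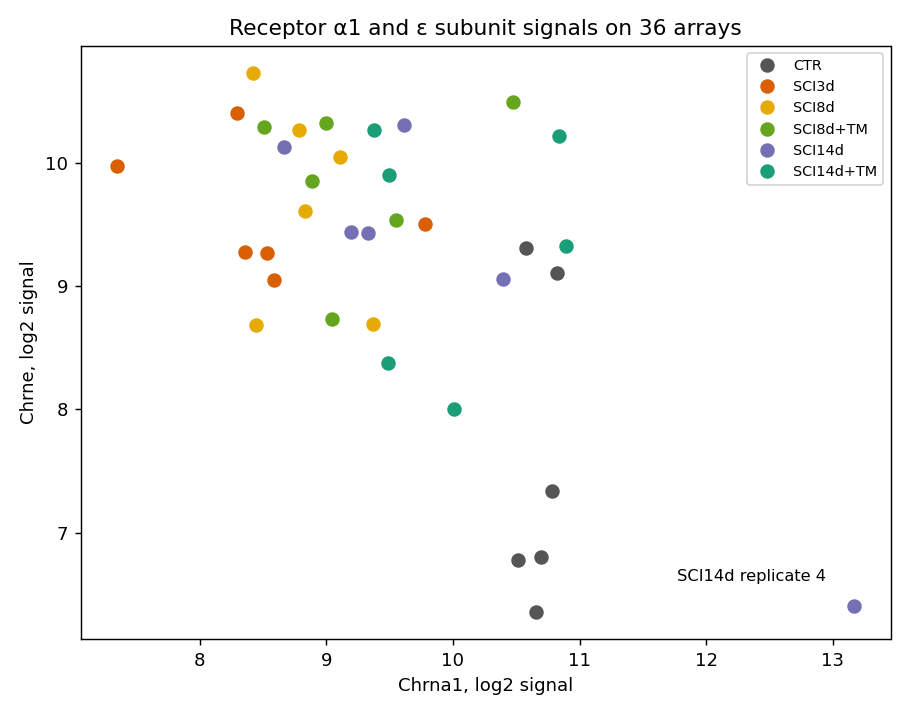
Log2 signal of Chrne (vertical axis) against Chrna1 (horizontal axis), 1 point per array, coloured by group. The SCI3d and SCI8d arrays lie at low Chrna1 and high Chrne, 4 of the 6 controls lie at high Chrna1 and low Chrne, and SCI14d replicate 4 lies beyond them at the highest Chrna1.

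Some markers of other cells passed the test as well. On day 3, 7.22% of all probe sets rose and 9.24% fell, so 1 call in a short list is near that share. The shares were 3.01% higher and 3.28% lower on day 8 and 1.52% higher on day 14. In trained rats of day 8, 6.48% were higher than in controls. Of 7 axon markers, 3 fell on day 3, Nefl, Nefm and Prph, and none on day 8 or 14 in limma. Nefl, Snap25 and Chat lay under the 40th percentile of signal. The mean log2 level of the 7, these dim genes included, was taken as a difference from the control mean. It ran from -0.68 to 0.56 in controls, from -1.40 to -0.65 on day 3, from -0.77 to 0.32 on day 8 and from -0.72 to 1.12 on day 14. Chrna1, Colq and Rapsn fell on that same day. Of 9 Schwann cell markers measured of 12, only S100b was called, and it fell on days 3 and 8. On day 3 Mbp, Sox10, Pmp22 and Prx changed by 0.84, 0.66, 0.22 and 0.20. Egr2, Ngfr, Mag and Gfap changed by -0.53, -0.18, -0.17 and -0.16. Of the 9, 4 lay under the 40th percentile (Gfap, Mag, Ngfr and Sox10). The mean level ran from -0.65 to 0.32 on day 3 against -0.30 to 0.28 in controls. Of 5 satellite cell markers measured of 7, Notch3 and Calcr (under the 40th percentile) fell on day 3 and Cdh15 rose on day 8. The mean level of this list ran from -0.81 to -0.04 on day 3 and from -0.31 to 0.30 on day 8, against -0.22 to 0.42 in controls. Red cell genes rose in 3 of 5 measured on days 3 and 8, with levels of 0.51 to 2.50 and 0.87 to 3.15 against -0.48 to 0.58. Of 8 macrophage markers 1 rose and 1 fell on day 3 and none was called on day 8 or 14, and of 5 fibroblast markers 1 fell on day 3 and 1 rose on each later day. In trained rats of day 8, where Chrne and Ncam1 were higher than in controls and Chrna1 and Colq lower, 3 of 8 macrophage markers (Cd68, Cd163 and C1qa), 3 of 5 fibroblast markers (Col3a1, Pdgfra and Lum) and 3 of 5 red cell genes were higher than in controls. Their mean levels ran from 0.17 to 1.33, from 0.73 to 1.07 and from 0.68 to 2.45 in that group, against -0.49 to 0.40, -0.74 to 0.90 and -0.48 to 0.58 in controls. Of 7 fast-fiber markers measured 1 rose and 1 fell on day 3, 3 rose and 1 fell on day 8 and 2 rose on day 14, while controls themselves ran from -1.22 to 2.76, and no slow-fiber marker was called. The part of these cells in the changes of the junction genes was not tested. In whole muscle, fewer junctions or cells of a type and less RNA in each of them cannot be told apart.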

How the data were processed

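The data are arrays (Affymetrix Rat Genome 230 2.0) of left soleus, 36 in 6 groups of 6 rats, grouped by the sample labels. Before deposition the authors computed the intensity values with Microarray Suite 5.0, on a linear scale, and brought all arrays to a common level. As deposited, the mean without the outer 2% was 800.3 to 800.4 on every array. The methods keep probe sets called present on 4 or more arrays. The deposited table has 31099, control probe sets included. The methods give a smaller amount of RNA per reaction than the labels do. The table has 0 other columns of sample values.

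Here 57 control probe sets were left out. Of the 31042 tested, 20826 carry 1 symbol, 436 several and 9780 none. Signals were taken to log2 with no offset. limma 3.58.1 in R 4.3.3 fitted the 6 groups (30 residual and 5.45 prior degrees of freedom, intensity trend), and each of 11 comparisons and the F test was adjusted over all probe sets (Benjamini-Hochberg). Genes outside the 9 are named where a list gene was called against controls in an untrained group, where it was among the 4 of smallest p of its list, or among the 3 of highest r. Others are named to describe a list or cell type, for a call in trained rats or between days, or for SCI14d replicate 4. The members and lists were chosen with earlier results of these data known. The number of arrays limits the precision.

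Alternatives were quantile normalization, median centring, scaling to Gapdh, an offset of 32, no dim probe sets (lowest 40%), no trend, array weights, the compared groups alone, the replicate block, replicates 5 and 6 as a batch, the GAPDH ratio as covariate, other probe sets or their mean, the methods' t-test and each array left out. A limit of 1.3 on the GAPDH ratio was added after seeing the data, since no array passed the planned limit of 3, and so was leaving out each array for called genes of the other lists. The procedure was tested on simulated data. Replicate numbers did not pair the rats. Promoters are RefSeq entries (GRCr8), searched on both strands. Promoter searches and plots used Python 3.11.15 and matplotlib 3.10.9. Muscle weights and RT-qPCR were not analysed here.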

Additional observations from a re-analysis of the deposited data

Results flagged for a closer look

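In 4 of the 54 sets of 6 rats (9 genes in 6 groups), 1 rat lay far from the other 5, where 2.7 are expected by chance at this limit. The share of the group's log2 range taken by the gap to the nearest rat was 0.680 for the low Chrne signal of SCI14d replicate 4. It was 0.669 for the high Chrng signal of SCI3d replicate 1, on a dim probe set. It was 0.670 for the low Ncam1 signal of SCI8d replicate 1. It was 0.676 for the high Colq signal of SCI3d replicate 6, the rat whose Rapsn signal was also the highest of its group.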

How the results depend on the processing

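Of the 18 differences of single genes that passed the test, 6 did so under every alternative that gave a value, namely Chrna1, Chrne and Colq on day 3, Chrna1 on day 8, and Chrne and Colq in trained rats of day 8 against controls. None of the 18 changed sign. The Rapsn fall on day 3 kept its call in 27 of 31 alternatives, and Ncam1 on day 8 in 18 of 31. Of 2564 values past the threshold neither in the reported setting nor in the alternative, 177 changed sign. Counts of called genes moved as follows, and the cause was not tested. For SCI14d against controls the count of 1 became 0 under quantile normalization, with the compared groups alone and with the methods' t-test after adjustment. It became 2 under median centring, array weights, the methods' t-test without adjustment, the GAPDH ratio as covariate and without the arrays of a ratio over 1.3. For SCI8d against SCI3d the count of 1 became 0 under quantile normalization, median centring, scaling to Gapdh, the compared groups alone, the adjusted t-test, averaging over the probe sets of a gene and the other Rapsn probe set. It became 2 with the unadjusted t-test. For SCI14d against SCI3d the count of 4 became 1 under quantile normalization, 2 under median centring, and 0 with the compared groups alone and with the adjusted t-test. The F test count of 5 became 3 under quantile normalization. For SCI8d against controls the count of 4 became 2 with the adjusted t-test, and for SCI14d+TM against controls 0 became 4 with the unadjusted one.

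With 1 array left out the counts ran from 1 to 4 for SCI8d against controls (2 without SCI8d replicate 2 or 5, 1 without replicate 6). They ran from 0 to 2 for SCI14d against controls, being 0 without CTR replicate 2 or 5 or SCI14d replicate 1, 3, 5 or 6 and 2 without SCI14d replicate 2 or 4. They ran from 0 to 2 for SCI8d against SCI3d, being 0 without SCI3d replicate 2, 3 or 4 or SCI8d replicate 4, 5 or 6 and 2 without SCI3d replicate 6, while without SCI8d replicate 1 it stayed 1 with Chrng in place of Rapsn. They ran from 2 to 4 for SCI14d against SCI3d, with 2 without SCI3d replicate 2 or 3. The other counts stayed within 1.5 times.

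The replicate numbers did not pair the rats. Same-numbered rats of 2 groups had correlations of -0.12 to 0.16 in their deviations, and no comparison had more than 1 of 6 pairs over 0.1. With the number as a block the counts were 4, 4 and 1 for SCI3d, SCI8d and SCI14d against controls, 5 for SCI8d+TM against controls (where Musk was added, adjusted p = 0.0325) and 6 for the F test.

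Scaling to Gapdh moved the median change of all probe sets on day 14 from 0.08 to 0.32. Chrng and the neuronal subunits lay in the dim range, where 6 arrays a group leave wide intervals. The planned limit of 3 on the GAPDH ratio was not run, since no array passed it.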
